A study of Homo sapiens with 24 samples.

Results

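The genes described here are 50 genes of mitosis, kinetochore and cytokinesis, chosen by symbol from the 25343 genes listed for each library. The list was chosen with earlier results of these data known, so its counts are a description and no independent test. All 50 were found in the files by their numeric gene identifiers, and all 50 passed the filter on low counts in every comparison. They cover 8 roles: entry into mitosis, the spindle checkpoint and the anaphase-promoting complex (APC/C), chromatid separation, the chromosomal passenger complex, the kinetochore, the spindle, cytokinesis, and condensation of chromosomes. RNA was measured by poly(A) RNA sequencing.

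Mitosis begins when cyclin B bound to the kinase CDK1 becomes active, with the kinases PLK1 and Aurora A acting on the centrosomes. Kinetochores attach chromosomes to spindle microtubules, and the spindle checkpoint holds the APC/C inactive until every kinetochore is attached. The APC/C with its activator CDC20 then marks securin and cyclin B for destruction, separase cuts cohesin, and the chromatids part before an actomyosin ring divides the cell. The messenger RNAs of these proteins are made mostly in G2 and mitosis. In quiescent cells the DREAM complex represses their promoters, and in G2 B-MYB with MuvB, and FOXM1, activate them.

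The groups were, for A375 melanoma cells and then for HCT116 colon cancer cells, the PTDSS2 knockout clone with inhibitor, the knockout with vehicle, the parent line with inhibitor and the parent line with vehicle. The inhibitor was DS07551382, which acts on PTDSS1, at 0.1 µM, the vehicle was DMSO, and both were left on for 24 h. Both synthases make phosphatidylserine in the endoplasmic reticulum. Each line had 1 knockout clone, A375 PTDSS2-KO#54 and HCT116 PTDSS2-KO#3, so a difference between knockout and parent cannot be told apart from a difference between clones. There were 3 libraries per group and 24 in all. Nothing in the labels says that replicates came from separate cultures. The p-values therefore reflect only how far these libraries differ among themselves, which may be technical.

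Library totals, in units of 1000000 counts, ran from 6.212 to 11.688 with a median of 9.2005, and the shallowest group was HCT116 knockout with inhibitor. Group means for single mitotic genes ran from 102 counts (SPC24 in HCT116 parent cells with inhibitor) to 8540 counts (TOP2A in A375 parent cells with inhibitor). PTDSS2 averaged 0.880 ± 0.141 counts per 1000000 (CPM; SD, n = 3) in A375 knockout vehicle, against 23.1 ± 0.952 CPM in A375 parent vehicle. In HCT116 it averaged 6.60 ± 1.23 CPM in knockout vehicle and 35.7 ± 2.35 CPM in parent vehicle. The labelled tissue was checked in parent vehicle libraries: SOX10 was at 288 TPM in A375 and 0.173 TPM in HCT116, while EPCAM was at 0.663 TPM in A375 and 360 TPM in HCT116. The pigment cell genes PMEL, MLANA, TYR and DCT were at or under 0.45 TPM in A375, and the colon genes CDX1, KRT20, VIL1 and LGALS4 at or under 0.807 TPM in HCT116.

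In the A375 knockout, RNA of nearly every mitotic gene was lower with inhibitor than with vehicle. Of the 50 genes 47 fell and 0 rose by edgeR's quasi-likelihood test at an adjusted p under 0.05, where 18.8% of the 13455 genes tested fell and 18.7% rose. INCENP, SGO1 and SPC24 were not called. The median log2 difference was -0.31 over the mitotic genes and 0.01 over all genes. Fewer cells in G2 and mitosis and less of these RNAs per cell cannot be told apart in such samples.

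In the HCT116 knockout the same exposure gave a smaller and mixed change. Of the 50 genes 19 fell, 4 rose and 27 were not called, where 20.1% of the 13164 genes tested fell and 17.1% rose. The genes that rose were CENPF, ESPL1, SPC24 and TOP2A. The median was -0.07, against 0.00 over all genes. With DESeq2, and in fits without inhibitor replicate 1 or without vehicle replicate 2, 2 genes rose instead of 4.

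Every inhibitor library lay below every vehicle library for 48 of the 50 genes in the A375 knockout, and 23.1% of all genes tested did so. TTK and SGO1 were the exceptions, with libraries that overlapped, and 0 genes had every inhibitor library above every vehicle library, where 23.2% of all genes did. In the HCT116 knockout 20 of 50 did so, where 23.8% of all genes tested did. For 4 genes every HCT116 inhibitor library lay above every vehicle library, where 21.3% of all genes tested did, and for 26 the libraries overlapped. The difference between the lines was called for 35 genes, all with the more negative change in A375, and for 0 genes the other way, where 8.75% of the 14637 genes tested were called lower in A375 and 10.9% higher. Its median over the mitotic genes was -0.26.

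**Figure D1:**
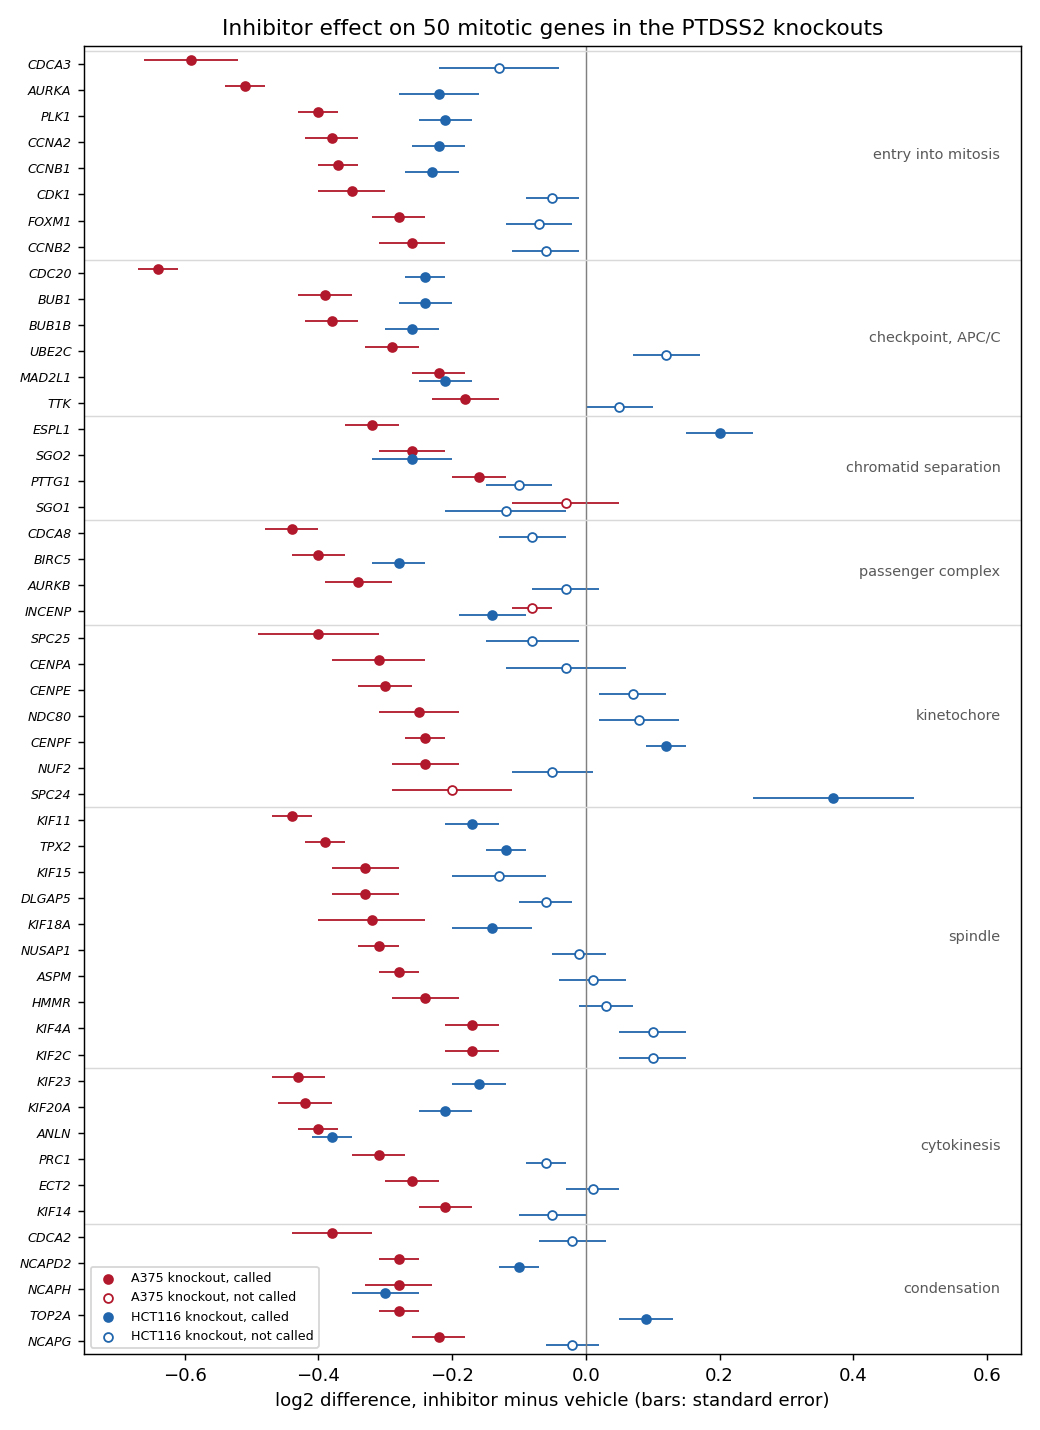
Log2 difference in CPM between inhibitor and vehicle in the A375 knockout (red) and the HCT116 knockout (blue) for each of the 50 genes, grouped by role, with standard errors. Filled points passed an edgeR adjusted p of 0.05. All A375 points lie left of 0, from -0.64 for CDC20 to -0.03 for SGO1, and HCT116 points lie on both sides, from -0.38 for ANLN to 0.37 for SPC24.

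Summed over the 50 genes, the share of all counts was 0.770%, 0.781% and 0.791% in the 3 A375 knockout libraries with inhibitor, against 0.963%, 0.963% and 0.960% in those with vehicle. A375 parent libraries held 0.949%, 0.973% and 0.957% with inhibitor, against 0.948%, 0.952% and 0.940% with vehicle. The A375 knockout with inhibitor thus stood below all other A375 libraries. HCT116 knockout libraries held 0.782%, 0.781% and 0.781% with inhibitor, against 0.825%, 0.818% and 0.838% with vehicle. HCT116 parent libraries held 0.815%, 0.805% and 0.808% with inhibitor, against 0.818%, 0.811% and 0.808% with vehicle. Among HCT116 libraries those of the knockout with inhibitor were again the lowest, by a smaller margin.

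**Figure D2:**
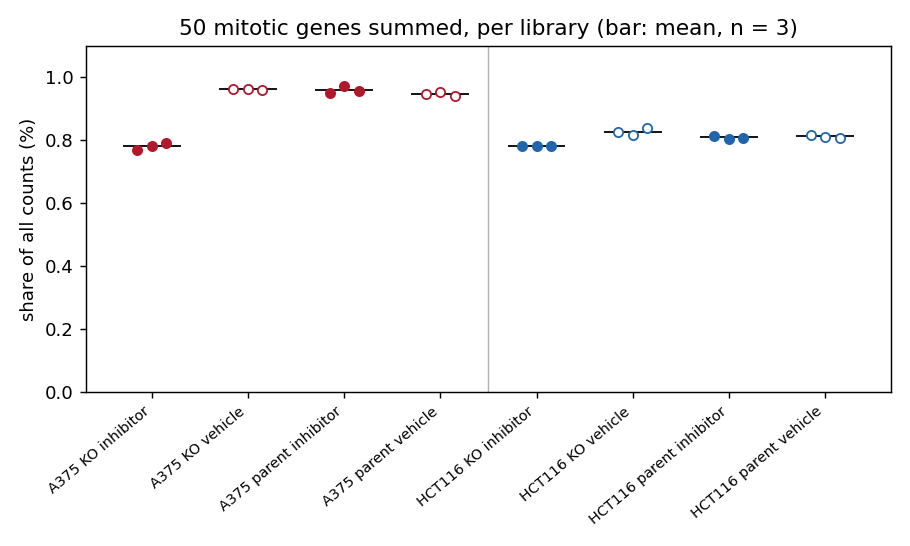
Summed counts of the 50 genes as a percentage of all counts in each of the 24 libraries, with a bar at the mean of each group of 3. The A375 knockout with inhibitor (mean 0.781%) lies below the A375 knockout with vehicle (mean 0.962%), and the HCT116 knockout with inhibitor (mean 0.781%) lies closer to its vehicle group (mean 0.827%).

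Genes of entry into mitosis fell together in A375: 8 of 8 fell in the A375 knockout and 4 of 8 in the HCT116 knockout, with medians of -0.38 and -0.17. CCNB1, the mitotic cyclin, had 269, 278 and 265 CPM with inhibitor and 355, 344 and 351 CPM with vehicle in the A375 knockout. It had 290, 282 and 277 CPM with inhibitor and 327, 336 and 330 CPM with vehicle in the HCT116 knockout. In both lines every inhibitor library was below every vehicle library, which is called apart in what follows. The log2 difference was -0.37 ± 0.03 in A375 (standard error; edgeR adjusted p = 8.764e-16) and -0.23 ± 0.04 in HCT116 (edgeR adjusted p = 2.48e-07). The A375 change was the more negative, with a difference between the lines of -0.14 ± 0.05 (edgeR adjusted p = 0.02429), a call that was lost in 7 of 20 alternatives.

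PLK1, the kinase that drives centrosome maturation and much else in mitosis, had 203, 199 and 208 CPM with inhibitor and 278, 257 and 272 CPM with vehicle in the A375 knockout. In the HCT116 knockout it had 188, 189 and 179 CPM with inhibitor and 215, 214 and 215 CPM with vehicle. The groups did not overlap in either line, and the fall was -0.40 ± 0.03 in A375 and -0.21 ± 0.04 in HCT116. AURKA, the Aurora kinase of the spindle poles, had 169, 164 and 164 CPM with inhibitor and 236, 232 and 239 CPM with vehicle in the A375 knockout. It had 59.3, 57.4 and 57.9 CPM with inhibitor and 63.1, 72.7 and 67.6 CPM with vehicle in the HCT116 knockout. Inhibitor libraries were the lower ones in both lines. The fall of AURKA was -0.51 ± 0.03 in A375 and -0.22 ± 0.06 in HCT116.

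CDCA3, known from frog egg extracts as a trigger of mitotic entry, had 27.7, 28.9 and 32.9 CPM with inhibitor and 48.8, 43.8 and 42.6 CPM with vehicle in the A375 knockout. Its HCT116 libraries overlapped, at 25.5, 32.6 and 31.7 CPM with inhibitor and 31.5, 34.3 and 31.6 CPM with vehicle. The change was -0.59 ± 0.07 in A375 (edgeR adjusted p = 5.81e-10) and -0.13 ± 0.09 in HCT116 (edgeR adjusted p = 0.2987). Of the rest, CCNA2 (cyclin A2) fell in both lines. CDK1, CCNB2 and the transcription factor gene FOXM1 fell in A375, with HCT116 values of -0.05, -0.06 and -0.07 that were not called. The difference between the lines was called for all 8 genes of entry, with values from -0.46 for CDCA3 to -0.14 for CCNB1. Besides CCNB1, the calls of CCNA2, CCNB2 and FOXM1 were lost in 10, 8 and 1 of 20 alternatives.

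Checkpoint and APC/C genes included the largest fall of all 50 genes. CDC20 had 204, 214 and 212 CPM with inhibitor and 333, 330 and 318 CPM with vehicle in the A375 knockout. Its HCT116 knockout levels were 315, 312 and 310 CPM with inhibitor and 376, 376 and 358 CPM with vehicle. The groups were apart in both lines, and the inhibitor mean was 64.3% of the vehicle mean in A375 and 84.5% in HCT116. The log2 differences were -0.64 ± 0.03 (edgeR adjusted p = 9.91e-25) and -0.24 ± 0.03 (edgeR adjusted p = 2.393e-08), which differed by -0.39 ± 0.05 (edgeR adjusted p = 1.428e-10).

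UBE2C, the ubiquitin-conjugating enzyme that works with the APC/C, had 147, 152 and 144 CPM with inhibitor and 182, 179 and 182 CPM with vehicle in the A375 knockout. HCT116 knockout libraries held 127, 116 and 123 CPM with inhibitor and 117, 115 and 108 CPM with vehicle. A375 groups were apart and HCT116 groups overlapped, with log2 differences of -0.29 ± 0.04 and 0.12 ± 0.05 (edgeR adjusted p = 0.05374 in HCT116). The checkpoint genes BUB1, BUB1B and MAD2L1 fell in both lines, with A375 values of -0.39, -0.38 and -0.22 and HCT116 values of -0.24, -0.26 and -0.21. Their differences between the lines were not called (-0.15 ± 0.06, -0.11 ± 0.06 and 0.00 ± 0.06). TTK, the kinase that starts checkpoint signalling, fell in A375 by 0.18 on the log2 scale and was at 0.05 in HCT116, not called. In all, 6 of 6 genes of this role fell in A375 and 4 of 6 in HCT116, with medians of -0.34 and -0.22.

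Genes of chromatid separation moved less in A375, where 3 of 4 fell with a median of -0.21. PTTG1, which encodes securin, the inhibitor of separase, had 90.3, 95.3 and 95.7 CPM with inhibitor and 102, 109 and 104 CPM with vehicle in the A375 knockout. In the HCT116 knockout it had 88.3, 88.0 and 81.5 CPM with inhibitor and 92.0, 90.8 and 93.7 CPM with vehicle. The groups did not overlap in either line, but only the A375 difference of -0.16 ± 0.04 was called, against -0.10 ± 0.05 in HCT116. The difference between the lines was -0.06 ± 0.07 and was not called. The near-identical copies PTTG2 and PTTG3P averaged at most 0.667 and 1.00 counts in any group.

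ESPL1, which encodes separase, went opposite ways. It had 127, 123 and 125 CPM with inhibitor and 162, 151 and 153 CPM with vehicle in the A375 knockout, and 130, 139 and 127 CPM with inhibitor and 119, 112 and 115 CPM with vehicle in the HCT116 knockout. Inhibitor libraries were all lower in A375 and all higher in HCT116. The log2 difference was -0.32 ± 0.04 in A375 (edgeR adjusted p = 8.183e-10) and 0.20 ± 0.05 in HCT116 (edgeR adjusted p = 0.0005876), and the lines differed by -0.51 ± 0.06 (edgeR adjusted p = 6.456e-11). SGO1 and SGO2 encode the shugoshins, which protect cohesin at centromeres. SGO1 had 32.8, 41.1 and 40.1 CPM with inhibitor and 39.3, 36.5 and 40.9 CPM with vehicle in the A375 knockout, and 29.1, 27.7 and 28.1 CPM with inhibitor and 29.1, 32.6 and 30.8 CPM with vehicle in the HCT116 knockout. Its groups overlapped or touched in both lines, with differences of -0.03 ± 0.08 and -0.12 ± 0.09 that were not called. SGO2 fell by 0.26 on the log2 scale in each line. The antisense gene SGO1-AS1 averaged at most 4.62 counts in any group.

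The chromosomal passenger complex joins the kinase Aurora B (AURKB) to INCENP, survivin (BIRC5) and borealin (CDCA8), and corrects wrong attachments of chromosomes. AURKB had 84.6, 86.7 and 83.6 CPM with inhibitor and 107, 99.8 and 115 CPM with vehicle in the A375 knockout. Its HCT116 knockout levels were 91.5, 87.6 and 82.9 CPM with inhibitor and 88.1, 91.8 and 89.0 CPM with vehicle. A375 groups were apart and HCT116 groups overlapped, with differences of -0.34 ± 0.05 and -0.03 ± 0.05. BIRC5 had 104, 112 and 110 CPM with inhibitor and 140, 147 and 144 CPM with vehicle in the A375 knockout, and 235, 226 and 230 CPM with inhibitor and 273, 292 and 275 CPM with vehicle in the HCT116 knockout.

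Inhibitor libraries were lower for BIRC5 in both lines, at -0.40 ± 0.04 in A375 and -0.28 ± 0.04 in HCT116, and the difference between the lines (-0.12 ± 0.06) was not called. INCENP, the scaffold of the complex, had 194, 196 and 199 CPM with inhibitor and 209, 207 and 209 CPM with vehicle in the A375 knockout. It had 104, 101 and 115 CPM with inhibitor and 122, 112 and 119 CPM with vehicle in the HCT116 knockout. The A375 groups were apart, yet the difference of -0.08 ± 0.03 missed the threshold (edgeR adjusted p = 0.0535), and the HCT116 groups overlapped at -0.14 ± 0.05, which was called (edgeR adjusted p = 0.01535) and lost in 4 of 15 alternatives. INCENP was the only gene of the 50 that fell in HCT116 and was not called in A375. CDCA8 fell by 0.44 on the log2 scale in A375 and was at -0.08 in HCT116, not called.

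Kinetochore genes gave the widest gap between the lines. Of 7 genes, 6 fell in A375 with a median of -0.25 over the 7, while in HCT116 0 fell, 2 rose and the median was 0.07. CENPF, a large protein of the outer kinetochore, had 606, 599 and 617 CPM with inhibitor and 720, 742 and 697 CPM with vehicle in the A375 knockout. HCT116 knockout libraries held 474, 472 and 486 CPM with inhibitor and 449, 413 and 455 CPM with vehicle. The groups were apart in both lines, in opposite directions, at -0.24 ± 0.03 in A375 and 0.12 ± 0.03 in HCT116. NUF2 belongs with NDC80, SPC24 and SPC25 to the NDC80 complex, which binds microtubules.

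NUF2 had 109, 121 and 108 CPM with inhibitor and 128, 134 and 137 CPM with vehicle in the A375 knockout, and 63.8, 58.5 and 56.9 CPM with inhibitor and 57.3, 65.1 and 63.6 CPM with vehicle in the HCT116 knockout. It fell in A375 (-0.24 ± 0.05), where the groups were apart, and was not called in HCT116 (-0.05 ± 0.06), where they overlapped. SPC24, the gene with the lowest group mean in counts, had 17.4, 17.5 and 18.5 CPM with inhibitor and 19.1, 20.4 and 21.8 CPM with vehicle in the A375 knockout. In the HCT116 knockout it had 16.2, 13.4 and 17.1 CPM with inhibitor and 12.3, 11.9 and 12.0 CPM with vehicle. Inhibitor libraries were all lower in A375 and all higher in HCT116, with differences of -0.20 ± 0.09 (edgeR adjusted p = 0.08109) and 0.37 ± 0.12 (edgeR adjusted p = 0.01467). The rise in HCT116 was lost in 3 of 15 alternatives, and the lines differed by -0.56 ± 0.15 (edgeR adjusted p = 0.003099). CENPA, the centromeric histone, CENPE, a kinetochore motor, and NDC80 fell in A375 by 0.31, 0.30 and 0.25 on the log2 scale. The largest A375 fall of this role was that of SPC25, at -0.4, beside -0.08 in HCT116, not called.

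**Figure D3:**
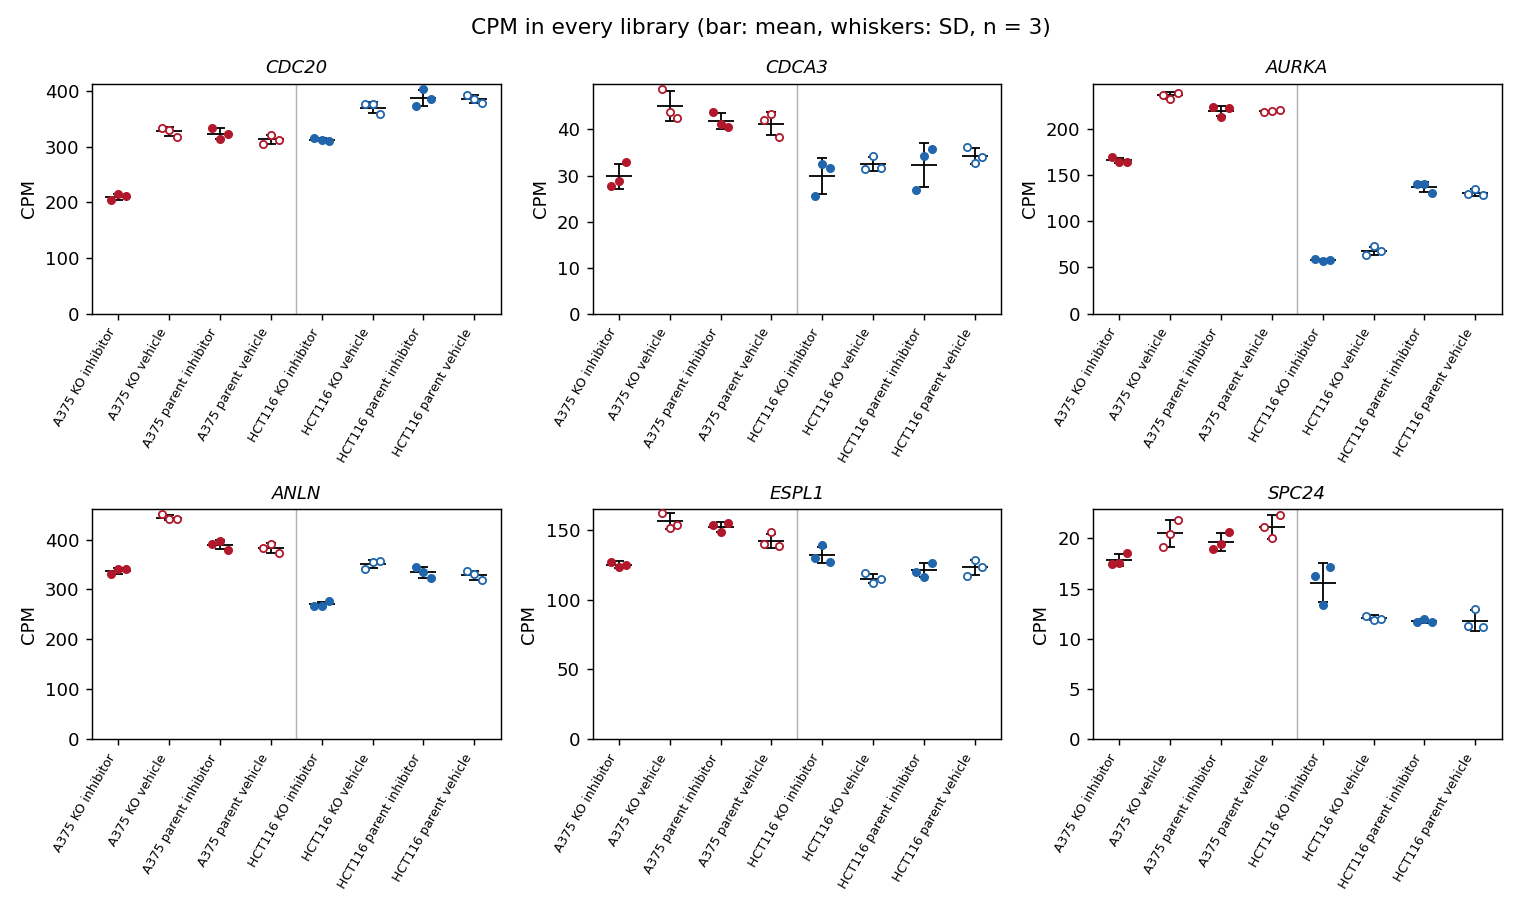
CPM of 6 genes in every library of the 8 groups, with the mean and SD of each group of 3; filled points are libraries with inhibitor and open points libraries with vehicle. CDC20, CDCA3 and AURKA are lowest among A375 groups in the knockout with inhibitor, ANLN is low in both knockouts with inhibitor, and ESPL1 and SPC24 are higher with inhibitor than with vehicle in the HCT116 knockout.

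Spindle genes fell in 10 of 10 cases in A375 (median -0.32) and in 3 of 10 in HCT116 (median -0.04). TPX2, which nucleates spindle microtubules and activates Aurora A, had 296, 289 and 315 CPM with inhibitor and 408, 386 and 390 CPM with vehicle in the A375 knockout. Its HCT116 knockout levels were 332, 337 and 320 CPM with inhibitor and 353, 365 and 358 CPM with vehicle. The groups were apart in both lines, at -0.39 ± 0.03 and -0.12 ± 0.03. NUSAP1, a protein that bundles spindle microtubules, had 155, 157 and 158 CPM with inhibitor and 193, 192 and 198 CPM with vehicle in the A375 knockout, and 207, 191 and 200 CPM with inhibitor and 199, 198 and 206 CPM with vehicle in the HCT116 knockout. It fell in A375 (-0.31 ± 0.03) and stayed within the spread of its libraries in HCT116 (-0.01 ± 0.04).

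KIF11, the motor that pushes the spindle poles apart, and KIF18A, which limits the swing of chromosomes, fell in both lines. Their values were -0.44 and -0.32 in A375 and -0.17 and -0.14 in HCT116. The KIF18A call in HCT116 was lost in 10 of 15 alternatives. KIF15, KIF2C, KIF4A, HMMR, DLGAP5 and ASPM fell in A375, by 0.17 to 0.33 on the log2 scale, and were not called in HCT116, where they lay between -0.13 and 0.10. KIF4B, a near-identical copy of KIF4A, averaged at most 8.65 counts in any group.

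Genes of cytokinesis fell in 6 of 6 cases in A375 (median -0.35) and in 3 of 6 in HCT116 (median -0.11). PRC1, which bundles the microtubules of the central spindle, had 181, 183 and 171 CPM with inhibitor and 218, 220 and 225 CPM with vehicle in the A375 knockout. HCT116 knockout libraries held 282, 283 and 289 CPM with inhibitor and 294, 300 and 298 CPM with vehicle. The groups were apart in both lines, at -0.31 ± 0.04 in A375 and -0.06 ± 0.03 in HCT116, which was not called. Its antisense gene PRC1-AS1 averaged at most 2.62 counts in any group, and whether counting used strand is not given in the sources used here. ANLN encodes anillin, the scaffold of the contractile ring. It had 330, 340 and 341 CPM with inhibitor and 451, 441 and 441 CPM with vehicle in the A375 knockout, and 267, 267 and 276 CPM with inhibitor and 341, 354 and 357 CPM with vehicle in the HCT116 knockout. ANLN was the gene with the largest HCT116 fall, -0.38 ± 0.03 (edgeR adjusted p = 2.198e-14), beside -0.40 ± 0.03 in A375 (edgeR adjusted p = 1.439e-17), and the lines differed by -0.01 ± 0.05. The midzone motors KIF20A and KIF23 fell in both lines, by 0.42 and 0.43 on the log2 scale in A375 and by 0.21 and 0.16 in HCT116. ECT2, which activates RhoA at the cell equator, and KIF14 fell in A375 by 0.26 and 0.21 and were at 0.01 and -0.05 in HCT116.

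Genes of condensation fell in 5 of 5 cases in A375 (median -0.28), while 2 of 5 fell and 1 rose in HCT116 (median -0.02). TOP2A, the topoisomerase that untangles sister chromatids, had 663, 696 and 707 CPM with inhibitor and 831, 828 and 857 CPM with vehicle in the A375 knockout. In the HCT116 knockout it had 394, 372 and 394 CPM with inhibitor and 347, 353 and 385 CPM with vehicle. A375 groups were apart at -0.28 ± 0.03, and HCT116 groups overlapped at 0.09 ± 0.04, a call (edgeR adjusted p = 0.02994) that was lost in 6 of 15 alternatives. NCAPD2 and NCAPH are subunits of condensin. NCAPD2 had 351, 340 and 364 CPM with inhibitor and 443, 418 and 420 CPM with vehicle in the A375 knockout, and 418, 414 and 411 CPM with inhibitor and 447, 451 and 437 CPM with vehicle in the HCT116 knockout. NCAPH had 76.8, 70.6 and 72.3 CPM with inhibitor and 90.9, 88.1 and 87.0 CPM with vehicle in the A375 knockout, and 95.4, 101 and 86.9 CPM with inhibitor and 112, 116 and 120 CPM with vehicle in the HCT116 knockout. Groups of both condensin genes were apart in both lines. NCAPD2 fell by 0.28 on the log2 scale in A375 and by 0.10 in HCT116, and NCAPH by 0.28 and 0.30.

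**Figure D4:**
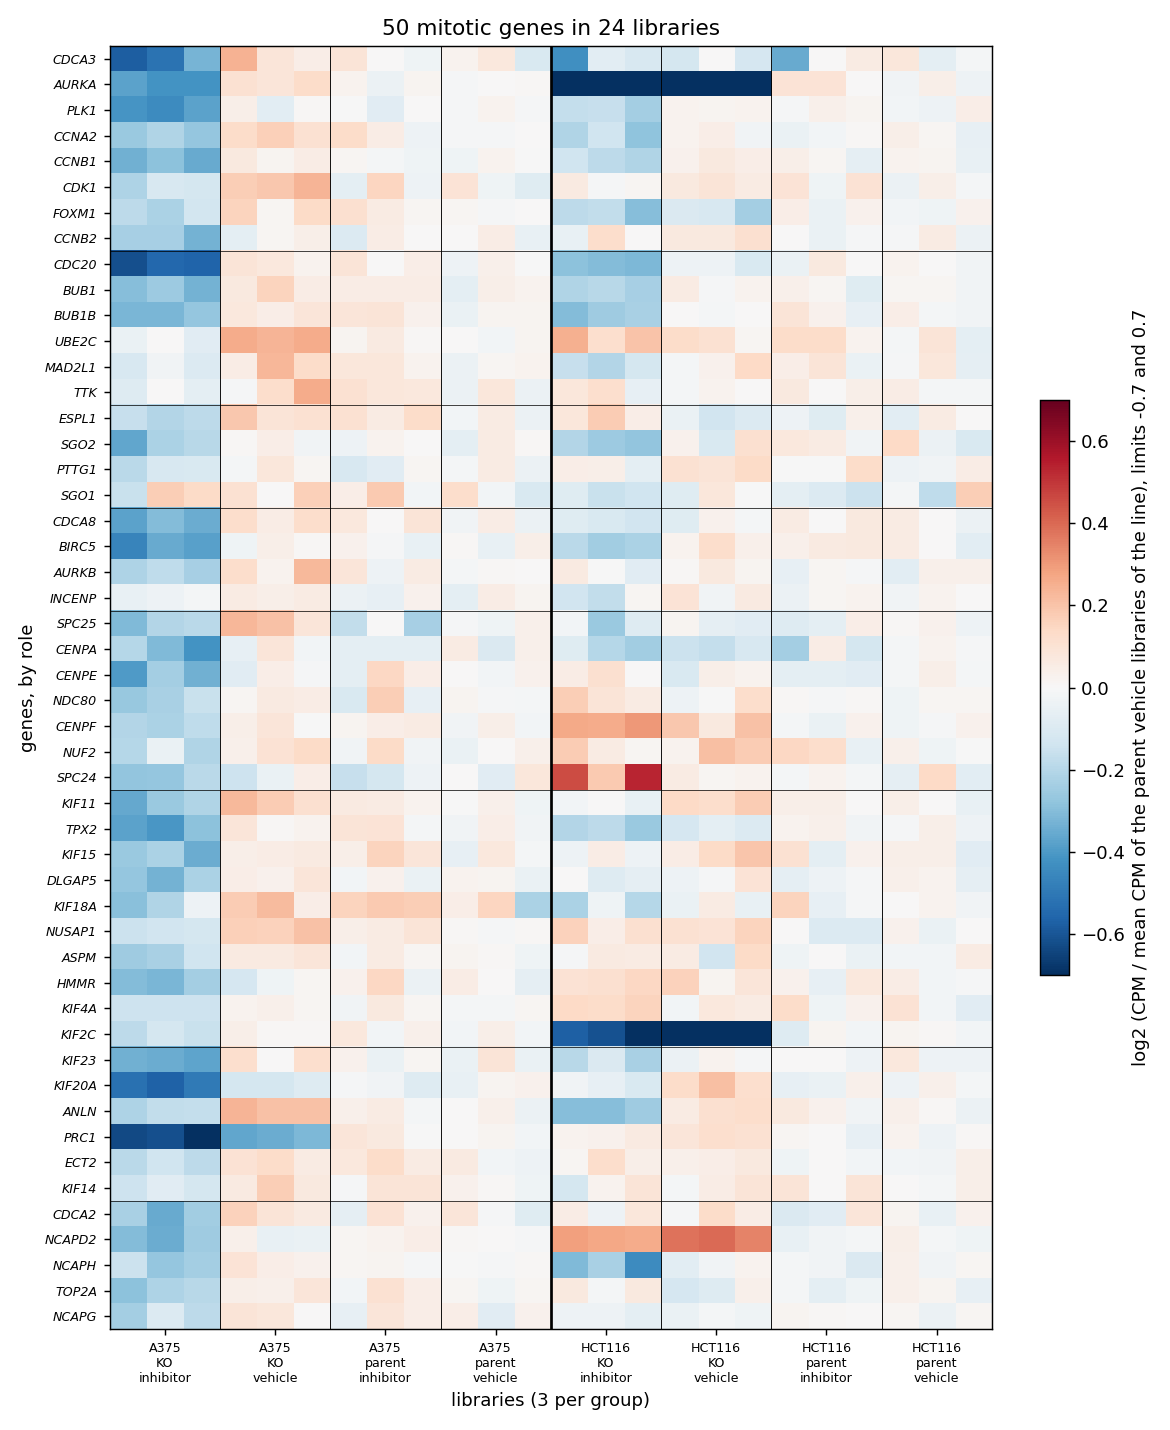
Log2 ratio of the CPM in each of the 24 libraries to the mean CPM of the parent vehicle libraries of the same line, for the 50 genes by role; red is higher and blue is lower, and the colour scale ends at -0.7 and 0.7. The 3 libraries of the A375 knockout with inhibitor are blue in nearly every row. AURKA and KIF2C are at or near the blue end in all HCT116 knockout libraries, with or without inhibitor.

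By single genes, 18 fell in both knockouts, which is 38.3% of the 47 that fell in A375 and 94.7% of the 19 that fell in HCT116. The second share is close to the 94.0% of all 50 that fell in A375. Of the 12003 genes tested in both lines 9.89% fell in both knockouts. Of these 18, 10 fell further in A375 by the test of the difference: AURKA, CCNA2, CCNB1, CDC20, KIF11, KIF20A, KIF23, NCAPD2, PLK1 and TPX2. For the other 8, ANLN, BIRC5, BUB1, BUB1B, KIF18A, MAD2L1, NCAPH and SGO2, the difference was not called. CENPF, ESPL1 and TOP2A fell in A375 and rose in HCT116. A further 26 genes fell in A375 and were not called in HCT116. How many of all genes showed either pattern was not counted, so the numbers of genes with these patterns are only a description. Across the 50 genes the log2 differences of the lines had a Pearson correlation of 0.44 and a Spearman correlation of 0.52; genes share libraries and are not independent, so this is a description.

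Parent cells, which have PTDSS2, served as the control for the compound. In A375 parent cells edgeR called 0 of the 50 genes, where 0.0669% of all genes tested fell and 0.0372% rose. At an unadjusted p under 0.05 there were 3 genes, and DESeq2 and limma-voom also called 0. Log2 differences lay between -0.13 (SPC25) and 0.18 (KIF18A), with a median of 0.03. In HCT116 parent cells edgeR called 0 of the 50 genes, where 0% of all genes fell and 0% rose. At an unadjusted p under 0.05 there were 0 genes, DESeq2 and limma-voom called 0, and the values lay between -0.10 (SGO1) and 0.09 (UBE2C). CDC20 had 333, 314 and 323 CPM with inhibitor and 305, 321 and 312 CPM with vehicle in A375 parent cells, and these libraries overlapped.

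The inhibitor effect in the knockout after subtraction of the parent effect was negative and called for 44 of the 50 genes in A375 and positive for 0, where 14% of all genes were called lower and 13.3% higher. Its median was -0.34. The largest was that of CDC20, at -0.69 ± 0.05 (edgeR adjusted p = 3.815e-19), followed by CDCA3 at -0.61 ± 0.10 and AURKA at -0.51 ± 0.05. CENPA, INCENP, PTTG1, SGO1, SPC24 and SPC25 were not called. In HCT116 the same difference was called lower for 16 genes and higher for 3 (CENPF, ESPL1 and TOP2A), where 13.8% and 11.1% of all genes were, and the median was -0.08. The 3 higher calls fell to 1 with DESeq2, without a filter on low counts, and in each fit without knockout inhibitor replicate 1, knockout vehicle replicate 2, parent inhibitor replicate 1 or 2, or parent vehicle replicate 2. ANLN had the most negative HCT116 value, -0.40 ± 0.05 (edgeR adjusted p = 5.334e-10).

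Without inhibitor the knockout clones differed from their parents in some of these genes, 12 in A375 and 11 in HCT116. The HCT116 counts were near the shares over all genes, which are given below by direction. In both lines 7 were called. The overlap of the clones over all genes tested was not counted, so this number is only a description. ANLN, KIF11 and NUSAP1 were higher in both knockouts, while AURKA, FOXM1, KIF20A and PRC1 differed in opposite directions. In A375 vehicle libraries, 2 genes were lower in the knockout and 10 were higher, where 6.78% of all genes were lower and 9.54% higher. PRC1 was the largest, with 218, 220 and 225 CPM in A375 knockout vehicle and 280, 284 and 276 CPM in A375 parent vehicle. All knockout libraries were lower, at -0.34 ± 0.03 (edgeR adjusted p = 4.05e-12). KIF20A was the other lower gene (-0.11 ± 0.04). The higher genes were ANLN, AURKA, CCNA2, CDK1, ESPL1, FOXM1, KIF11, MAD2L1, NUSAP1 and UBE2C, with values from 0.10 for FOXM1 to 0.25 ± 0.04 for UBE2C. Without parent vehicle replicate 1 there were 6 higher genes, and with DESeq2 or with library size alone 5; PRC1 alone was lower with DESeq2 and without knockout replicate 1 or 2 or parent replicate 2 or 3.

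In HCT116 vehicle libraries, 4 genes were lower in the knockout and 7 were higher, where 10.8% of all genes were lower and 10.5% higher. AURKA had 63.1, 72.7 and 67.6 CPM in HCT116 knockout vehicle and 129, 135 and 128 CPM in HCT116 parent vehicle. The knockout mean was 51.8% of the parent mean, a log2 difference of -0.95 ± 0.05 (edgeR adjusted p = 1.179e-25), and no library of one group reached the other. KIF2C, a kinesin that takes microtubules apart at kinetochores, had 98.1, 94.9 and 100 CPM in knockout vehicle and 167, 166 and 163 CPM in parent vehicle (-0.76 ± 0.05, edgeR adjusted p = 9.082e-23). It was picked for these values after they were seen. NCAPD2 was the largest rise, with 447, 451 and 437 CPM in knockout vehicle and 353, 340 and 336 CPM in parent vehicle (0.37 ± 0.03, edgeR adjusted p = 8.85e-16). FOXM1 and TPX2 were lower by 0.15 and 0.10, and ANLN, CENPF, KIF11, KIF20A, NUSAP1 and PRC1 were higher by 0.09 to 0.16 on the log2 scale. Without knockout vehicle replicate 3 or parent vehicle replicate 2 there were 4 higher genes instead of 7.

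With inhibitor, AURKA was lower again in the HCT116 knockout, at 58.2 ± 0.987 CPM, and KIF2C was at 104 ± 9.02 CPM (SD, n = 3), which was not called against vehicle. In A375 neither gene was lower in the knockout vehicle libraries than in the parent vehicle libraries, with AURKA at 236 ± 3.67 CPM in knockout vehicle and 219 ± 0.701 CPM in parent vehicle, and KIF2C at 170 ± 2.48 CPM in knockout vehicle and 168 ± 4.05 CPM in parent vehicle. PRC1 in HCT116 was at 297 ± 3.15 CPM in knockout vehicle and 277 ± 6.18 CPM in parent vehicle.

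**Figure D5:**
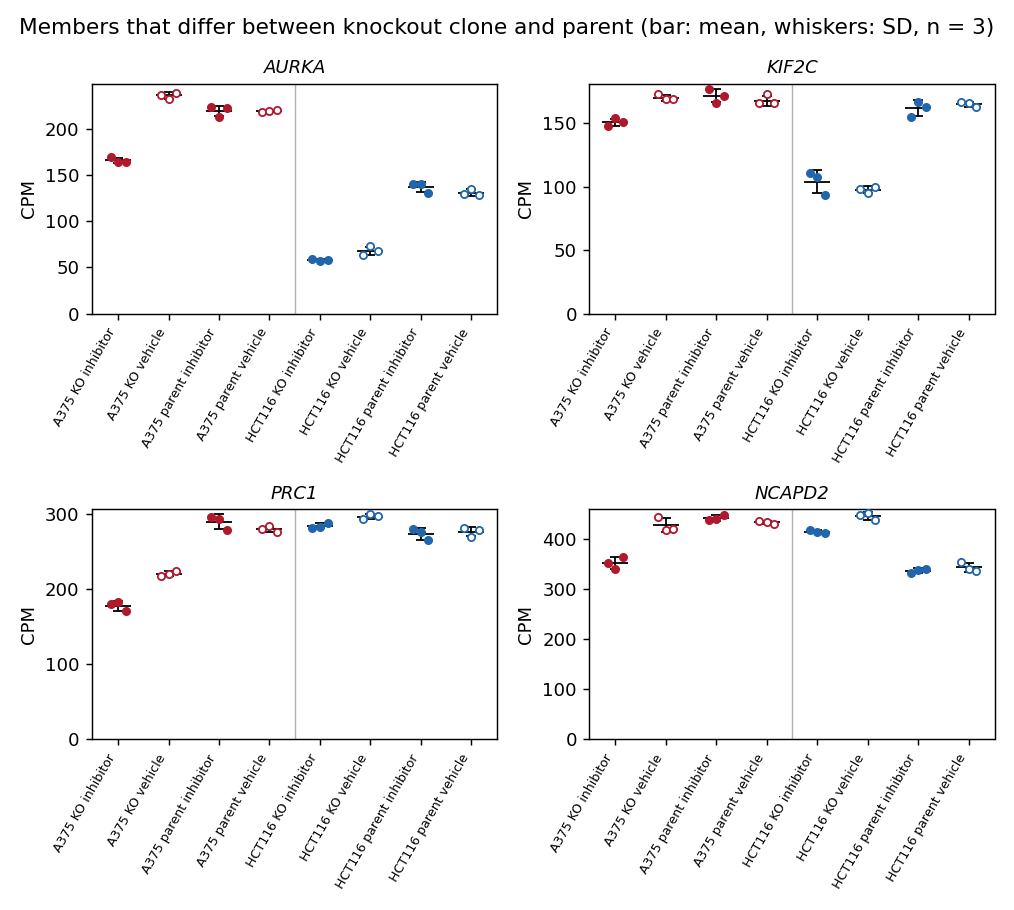
CPM of AURKA, KIF2C, PRC1 and NCAPD2 in every library of the 8 groups, with the mean and SD of each group of 3. In HCT116 all knockout libraries are below all parent libraries for AURKA and KIF2C and above them for NCAPD2, and in A375 all knockout libraries are below all parent libraries for PRC1.

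On a scale set per length of RNA (TPM), parent vehicle levels ran over a wide range. In A375 parent vehicle UBE2C came first at 400 ± 7.82 TPM (SD, n = 3), close to CDC20 at 394 ± 8.54 TPM, a gap smaller than either spread. KIF18A came last at 20.8 ± 2.71 TPM. In HCT116 parent vehicle CDC20 came first at 481 ± 5.70 TPM, followed by CCNB1 at 305 ± 5.96 TPM, with KIF15 last at 19.8 ± 0.786 TPM and SGO1 next to it at 20.9 ± 1.83 TPM. Levels of some genes differed between the lines by more than the spread: TOP2A was at 287 ± 6.02 TPM in A375 and 132 ± 3.38 TPM in HCT116, and SPC25 at 29.8 ± 0.728 TPM in A375 and 68.5 ± 0.982 TPM in HCT116. Libraries of a group lay close together, with a median coefficient of variation in CPM over the 50 genes from 2.59% in A375 parent vehicle to 3.46% in HCT116 knockout vehicle.

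Promoter sequences are shown for the 5 genes with the lowest A375 knockout change whose window holds the cell cycle genes homology region (CHR), the element that MuvB binds through LIN54. Windows of 300 bases around the start site were taken from RefSeq on build GRCh38.p14, which is not the build of the files, and 43 of the 50 genes had one. The CHR was searched as TTTGAA or TTCGAA and the CCAAT box of NF-Y as CCAAT, each on both strands (TTCAAA and ATTGG on the other strand). Sequences run 5′ to 3′ on the strand of the gene, with matches in capitals.
CDC20: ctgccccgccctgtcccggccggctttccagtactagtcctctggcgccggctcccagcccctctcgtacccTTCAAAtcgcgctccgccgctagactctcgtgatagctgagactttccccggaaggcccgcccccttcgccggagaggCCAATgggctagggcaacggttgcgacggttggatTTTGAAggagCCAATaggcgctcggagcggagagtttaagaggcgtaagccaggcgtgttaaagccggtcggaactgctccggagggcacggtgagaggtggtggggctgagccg
CDCA3: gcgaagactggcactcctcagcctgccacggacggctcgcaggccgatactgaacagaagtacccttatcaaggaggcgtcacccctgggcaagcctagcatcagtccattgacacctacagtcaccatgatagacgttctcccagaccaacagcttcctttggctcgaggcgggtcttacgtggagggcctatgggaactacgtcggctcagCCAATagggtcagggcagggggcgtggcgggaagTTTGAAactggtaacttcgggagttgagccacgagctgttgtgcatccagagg
KIF11: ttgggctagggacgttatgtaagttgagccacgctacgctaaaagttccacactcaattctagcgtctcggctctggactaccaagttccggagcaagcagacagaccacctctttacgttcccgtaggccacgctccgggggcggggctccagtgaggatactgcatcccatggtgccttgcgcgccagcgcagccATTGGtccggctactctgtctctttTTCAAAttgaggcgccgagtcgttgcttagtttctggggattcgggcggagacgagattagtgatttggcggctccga
CDCA8: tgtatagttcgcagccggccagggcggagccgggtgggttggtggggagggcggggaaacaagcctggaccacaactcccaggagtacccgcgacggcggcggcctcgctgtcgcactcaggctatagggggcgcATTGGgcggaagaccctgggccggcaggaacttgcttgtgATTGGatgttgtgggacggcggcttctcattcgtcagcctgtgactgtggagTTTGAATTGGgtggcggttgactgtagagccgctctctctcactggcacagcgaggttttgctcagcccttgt
KIF23: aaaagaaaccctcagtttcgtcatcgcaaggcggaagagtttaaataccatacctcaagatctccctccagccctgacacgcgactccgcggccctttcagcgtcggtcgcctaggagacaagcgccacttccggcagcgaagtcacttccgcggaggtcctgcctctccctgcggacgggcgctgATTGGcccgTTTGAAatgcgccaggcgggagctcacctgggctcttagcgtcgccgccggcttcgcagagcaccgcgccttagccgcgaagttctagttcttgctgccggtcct
The windows lie at chr1:43358731-43359030 (CDC20, plus strand), chr12:6851237-6851536 (CDCA3, minus strand), chr10:92592880-92593179 (KIF11, plus strand), chr1:37692266-37692565 (CDCA8, plus strand) and chr15:69414099-69414398 (KIF23, plus strand). In CDCA8 a TTTGAA shares letters with an ATTGG.

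A gene was counted if any of its windows held the string. A CHR string stood in a window of 33 of the 43 genes (76.7%). It stood in 64.5% of 62 other mitotic genes listed and in 19.5% of 27305 genes, all RefSeq genes with a window. These 27305 include genes not tested here. The CCAAT string stood in 35 of 43 (81.4%), against 64.5% of the other mitotic genes and 39.7% of all genes. Both strings stood in 27 of 43 (62.8%), against 48.4% of the other mitotic genes and 7.85% of all genes. The 33 genes with a CHR string had a median A375 knockout change of -0.31 and the 10 without one -0.29. In HCT116 the median was -0.06 for the 33 with a CHR string and -0.15 for the 10 without. A match describes letters and is not evidence of binding, and no difference between genes with and without a match was tested.

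The remaining genes of mitosis and of the cell cycle moved in part with the 50. Of 78 other mitotic genes 52 fell and 2 rose (CIT and KIF3A) in the A375 knockout, and 30 fell and 5 rose in the HCT116 knockout, with medians of -0.23 and -0.10. ARHGAP11A, FAM83D, SPDL1 and TACC3 fell in A375 by 0.47, 0.50, 0.48 and 0.43 on the log2 scale. CDC25B, the phosphatase that activates CDK1, rose in HCT116 by 0.42 ± 0.04 (edgeR adjusted p = 9.024e-16). Of 16 subunits and cofactors of the APC/C 6 fell and 0 rose in A375 and 5 fell and 0 rose in HCT116, and UBE2S, its chain-extending ubiquitin-conjugating enzyme, fell by 0.43 in A375 and by 0.23 in HCT116.

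Genes that control this promoter class changed in part. Of 15 genes of DREAM, MMB and E2F, 7 fell and 2 rose in A375 (median -0.12) and 5 fell and 0 rose in HCT116 (median -0.09). For this and the other lists the shares over all genes tested are 18.8% lower and 18.7% higher in A375 and 20.1% lower and 17.1% higher in HCT116. MYBL2, which encodes B-MYB, fell by 0.39 in A375 and by 0.26 in HCT116, and E2F1 fell by 0.34 in A375 and was at -0.04 in HCT116, not called. Of 14 genes of CDK inhibitors and p53 targets, 6 rose and 0 fell in A375, where 13 were tested, and 8 rose and 1 fell in HCT116. CCNG2 had the highest value of this list in both lines, 1.09 in A375 and 0.77 in HCT116. CDKN1A, which encodes the CDK inhibitor p21, rose by 0.27 ± 0.04 in each line, and CDKN1B, which encodes p27, rose by 0.25 ± 0.05 in A375 and 0.32 ± 0.06 in HCT116. The other CDK inhibitor genes of the list that were tested in A375 were not called there. Of 30 genes of G1/S and replication 27 fell in A375 (median -0.26) and 16 in HCT116 (median -0.17), and 0 rose in either. UHRF1 fell by 0.49 in A375 and 0.28 in HCT116, and MCM4, a subunit of the replicative helicase, by 0.35 and 0.30. RNAs of S phase thus fell in both knockouts. In HCT116 their median of -0.17 was lower than the -0.07 of the 50 mitotic genes. Their part in the result was not tested.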

How the data were processed

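RNA was measured in 24 libraries, 3 for each of 8 groups. Per the submitters' processing notes, reads were processed with STAR 2.4.2a and RSEM 1.2.23 on hg19. Which annotation was used, whether counting used strand and whether genes were filtered is not given in the sources used here. Deposited expected counts are RSEM's estimated counts per gene, which share out reads that match several genes, per the file headers. TPM and FPKM columns were also deposited and, per the file headers, correct for length and library size; TPM served for levels between genes, and FPKM was not used. Of 25343 gene identifiers 25220 matched a symbol in a RefSeq table of GRCh38.p14, used for names, and the unmatched 123 held at most 0.0724% of a library.

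Expected counts were rounded to whole numbers, scaled with TMM factors and kept by edgeR's default expression filter. Each line was fitted over its 12 libraries, and all 24 were fitted together for A375 minus HCT116, with a mean per group and no covariate. The quasi-likelihood F test (edgeR 4.0.16, R 4.3.3) was two-sided, with Benjamini-Hochberg adjustment over all genes tested, and a gene rose or fell where its adjusted p was under 0.05. Standard errors are the log2 difference divided by the square root of F. CPM values are TMM-scaled within a line. The procedure was run on simulated counts drawn from the fitted spread of these libraries, which does not test whether the model holds. Counting error is largest in the shallowest libraries, and intervals on counts are not given because replicates carry the error.

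The genes, their roles, the other gene lists and the rule for values in every library were chosen with earlier results of these data known. By that rule every library is given for the 2 genes of highest TPM in each role, the 3 lowest and 3 highest changes in each knockout, and genes called against the majority; of other lists up to 4 genes per knockout are named. Same-numbered libraries did not deviate together, with median correlations of 0.0028 in A375 and 0.0118 in HCT116, so numbers were not used as pairs. No replicate libraries were identical, and all replicate pairs differed by more than sampling noise (chi-square per degree of freedom 1.477 to 2.104). The alternatives used library size alone, size factors of DESeq2, no filter on low counts, a mean of at least 5 CPM, DESeq2 1.42.0, limma-voom (limma 3.58.1), a replicate block, other sets of libraries, and each library left out in turn.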

Additional observations from a re-analysis of the deposited data

Results flagged for a closer look

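Results are listed here because the same contrast gave different values in different cells, by the test of the difference itself in edgeR at an adjusted p under 0.05. The inhibitor effect in the A375 knockout minus that in the HCT116 knockout was negative and called for 35 of the 50 genes. Over all genes tested 8.75% were called lower in A375 and 10.9% higher. Among genes given in every library, the values on the log2 scale were -0.14 for CCNB1, -0.18 for PLK1, -0.29 for AURKA and -0.46 for CDCA3 among genes of entry. They were -0.39 for CDC20, -0.41 for UBE2C, -0.51 for ESPL1 and -0.30 for AURKB. Kinetochore and spindle genes gave -0.36 for CENPF, -0.56 for SPC24, -0.27 for TPX2 and -0.29 for NUSAP1. The remaining values were -0.24 for PRC1, -0.37 for TOP2A and -0.17 for NCAPD2. After subtraction of the parent effect, the knockout effect was called lower for 44 genes in A375, and lower for 16 and higher for 3 in HCT116. Over all genes tested 14% were called lower in A375, and 13.8% lower and 11.1% higher in HCT116. This parent-subtracted effect was not tested between the lines. HCT116 knockout libraries with inhibitor were the shallowest, and the part of depth in these differences was not tested.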

How the results depend on the processing

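The falls in the A375 knockout ranged from 46 to 48 genes over all alternatives, those in the HCT116 knockout from 17 to 19, and the genes more negative in A375 from 31 to 41. Genes called in the parents stayed at 0 in all alternatives. No called gene changed sign under an alternative. Rises in the HCT116 knockout (4) came to 2 with DESeq2 and to between 2 and 5 with a library left out. HCT116 effects higher in the knockout than in the parent (3) came to 1 with DESeq2 or without a filter, and to between 1 and 3 with a library left out. In A375 vehicle, higher genes in the knockout (10) came to 5 with DESeq2 and 5 with library size alone, and to between 6 and 10 with a library left out, and lower genes (2) came to 1 with DESeq2 and to between 1 and 2 with a library left out. In HCT116 vehicle, higher genes (7) came to between 4 and 8 with a library left out. The cause was not tested. Calls near the threshold were lost often: SPC25 and CCNA2 between the lines in 11 and 10 of 20 alternatives, and FOXM1 in A375 vehicle in 10 of 15. With the replicate block 48 genes fell in the A375 knockout, and 19 fell and 5 rose in the HCT116 knockout, while 36 were more negative in A375. Replicate numbers did not pair the libraries, so the block is no test of a weaker effect. Depth limits SPC24, at 102 to 201 counts per group, and in A375 also SPC25, at 153 to 194 counts. In the HCT116 knockout with inhibitor, CENPA at 176 counts and SGO1 at 197 counts were in the same range.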
